A study of Mus musculus with 6 samples.

Results

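Peroxiredoxins, superoxide dismutases, catalase and glutathione peroxidase remove reactive oxygen species. Superoxide dismutases turn superoxide into hydrogen peroxide, and catalase, glutathione peroxidases and peroxiredoxins break the peroxide down. Peroxiredoxins are oxidised in each cycle and are recharged by thioredoxin. Long-term haematopoietic stem cells are known to be sensitive to reactive oxygen, which can drive them out of quiescence.

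The genes described here are the peroxiredoxins Prdx1 to Prdx6, the superoxide dismutases Sod1 and Sod2, catalase (Cat) and glutathione peroxidase Gpx1. They were followed through every probe set that the platform annotation assigned to 1 gene only. Of these 10 genes, 7 had such a probe set, 19 probe sets in all, out of 18193 genes and 34945 single-gene probe sets in the table. Prdx1 had none, because each of its 5 probe sets also named the pseudogene Gm21399, and Prdx5 and Prdx6 had no probe set named in the annotation used, so these 3 genes are not analysed here.

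The cells were long-term haematopoietic stem cells of mouse bone marrow, sorted as negative for lineage markers and CD48 and positive for Sca-1, c-kit and CD150. One group, called wildtype here, came from Irf8+/+ mice and the other, called knockout, from Irf8-/- mice, with 3 samples each and 1 array per sample. All samples are labelled 3 weeks, without saying what the time counts from, and received no treatment. The sources used here do not say how Irf8 was inactivated or how many animals gave a sample. RNA of all 6 samples was amplified from small amounts before hybridisation to Affymetrix Mouse Genome 430 2.0 arrays. All values below are log2 expression values, and all differences are knockout minus wildtype on that scale, so that a difference below 0 means a lower level in knockout.

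Some facts of the arrays bear on every value. Array medians ran from 4.85 to 4.96, and the median level over all genes was 5.81. Irf8 read between 4.98 and 6.43 in wildtype and between 4.91 and 6.50 in knockout (difference 0.41, SE 0.60, adjusted p = 0.92 in limma; 0.13 to 0.92 with an array left out), so it did not separate the groups, and where its probes lie relative to the removed sequence is not known from the sources used here. Its wildtype mean, 5.52, lay under the median gene level. With the mean of its probe sets the difference was 0.32 (SE 0.39). Of the sort markers, Kit read between 9.38 and 9.76 in wildtype and between 8.09 and 10.46 in knockout. Slamf1, which encodes CD150, read between 5.97 and 9.11 in wildtype and 9.02, 8.49 and 4.71 in knockout replicates 1 to 3, a difference of 0.17 (SE 1.35), and in replicate 3 it lay under the median gene level. Knockout replicate 3 also had the lowest weight when arrays were weighted by how well they fitted their group (0.491, against 0.988 to 1.40 in the others). Values without it are given for Prdx2, Gpx1 and Txnrd2. Ranges with each array left out are given further below for the antioxidant enzyme genes.

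No antioxidant enzyme gene differed between the groups beyond the threshold, and Prdx2 was the 1 gene whose groups did not overlap. With limma and Benjamini-Hochberg adjustment over all genes, 0 of the 7 genes passed an adjusted p of 0.05, and 1 had an unadjusted p under 0.05. The share of all genes that passed was 0%, and 4.84% had an unadjusted p under 0.05. The knockout mean was lower for 5 of the 7 genes and higher for 2, and the median difference was -0.18. Over all genes the median difference was 0.07, with 43.4% below 0, and among genes above the median gene level it was -0.05, with 52.9% below 0. The groups did not overlap in 1 of the 7, lower in knockout, and in 0 with knockout higher. Over all genes, 4.25% had groups apart with knockout lower and 6.67% with knockout higher, so the count of 1 in 7 rests on Prdx2 alone.

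**Figure D1:**
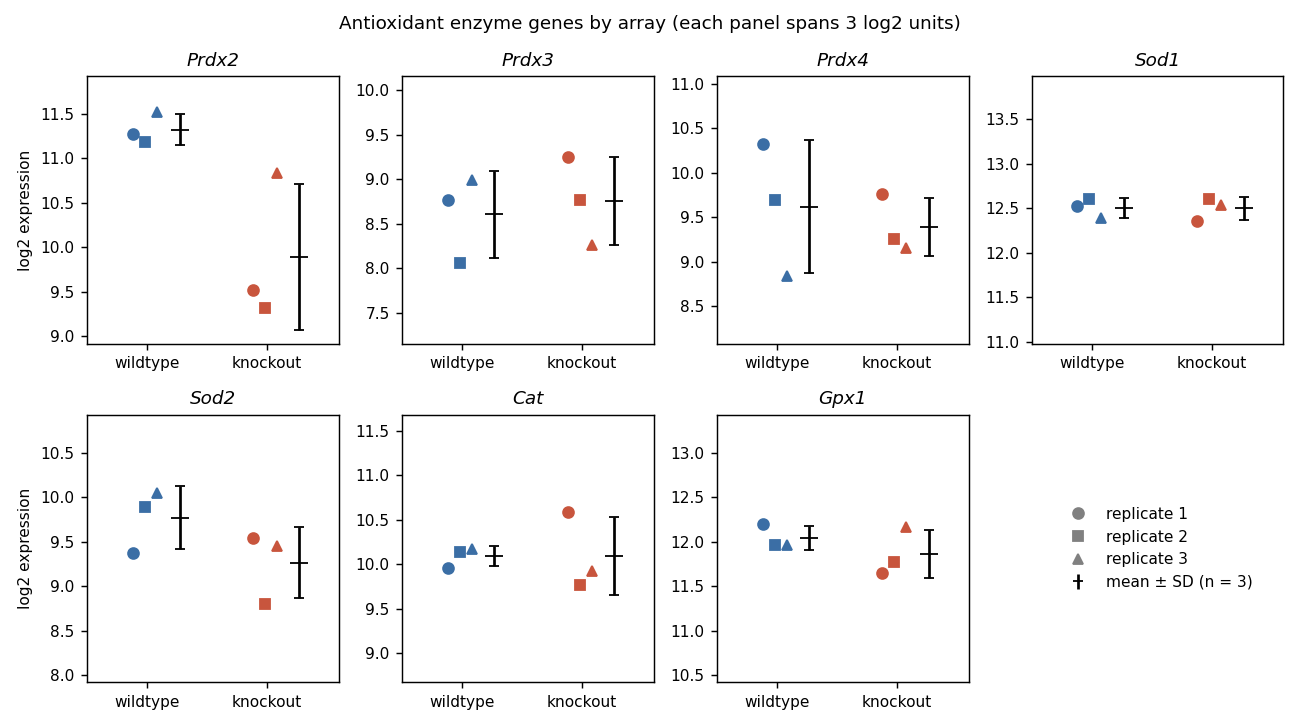
Log2 expression of the 7 antioxidant enzyme genes in each array, by the brightest probe set of each gene, with wildtype arrays in blue, knockout arrays in red and the mean ± SD of each group (n = 3) in black. Every panel spans the same range, so that the spread of Prdx2, from 9.32 to 11.51, can be set against that of Sod1, from 12.36 to 12.60.

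Prdx2, a cytosolic peroxiredoxin that is very abundant in red blood cells, read lower in the knockout arrays. It read 11.27, 11.18 and 11.51 in wildtype replicates 1 to 3 and 9.52, 9.32 and 10.83 in knockout replicates 1 to 3. The wildtype arrays lay close together, whereas knockout replicates 1 and 2 lay far below them and replicate 3 lay just below. The means were 11.32 ± 0.17 and 9.89 ± 0.82 (SD, n = 3 each). The difference was -1.43 (SE 0.44, 95% interval -2.47 to -0.39), or 2.69-fold lower in knockout. Its adjusted p was 0.887 in limma, so the difference did not pass over all genes. Without knockout replicate 3 it was -1.90 (SE 0.27, adjusted p = 0.59 in limma). Groups that lie apart on all arrays stay apart whichever array is left out, so that check could not have come out otherwise. In such bulk samples, fewer cells of a type and less RNA per cell cannot be told apart.

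The other probe set of Prdx2 did not separate the groups. It read 7.47, 9.53 and 9.01 in wildtype and 5.21, 10.39 and 3.40 in knockout. Knockout replicate 2 was thus the highest of all 6 arrays there, although the brighter probe set was lowest in that array. The brighter probe set exceeded the other by 7.42 in knockout replicate 3 and lay 1.07 under it in knockout replicate 2. The difference of this probe set was -2.34 with an SE of 1.76, and its 95% interval, -6.57 to 1.90, held 0. Without knockout replicate 2 it was -4.36 (SE 0.93, adjusted p = 0.773 in limma) and the groups no longer overlapped. In that comparison 7.99% of all genes, each read by its brightest probe set, lay lower without overlap. That share is over genes and not over all probe sets. The difference was -0.87 (SE 1.64) without knockout replicate 3 and -1.77 (SE 2.06) without knockout replicate 1, and the groups overlapped in both. With the mean of the probe sets Prdx2 differed by -1.88 (SE 0.76), and the groups overlapped. Both probe sets are of a type that can bind several transcripts of the gene.

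To show the sequence beside the values, the 250 bases before the annotated start are printed for Prdx2, whose difference was the largest of the 7, and for Sod1, whose difference was among the smallest. Sequences are from RefSeq, build GRCm38.p6, 5′ to 3′ on the strand of the gene, at chr8:84969372-84969621 (+) for Prdx2 and chr16:90220512-90220761 (+) for Sod1. Capitals mark matches, on either strand, to any of 6 motifs.
Prdx2: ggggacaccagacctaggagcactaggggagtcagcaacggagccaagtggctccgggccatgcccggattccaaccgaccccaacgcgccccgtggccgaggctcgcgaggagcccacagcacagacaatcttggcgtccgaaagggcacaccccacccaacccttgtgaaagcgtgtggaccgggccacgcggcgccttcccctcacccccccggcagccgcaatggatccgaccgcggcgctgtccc
Sod1: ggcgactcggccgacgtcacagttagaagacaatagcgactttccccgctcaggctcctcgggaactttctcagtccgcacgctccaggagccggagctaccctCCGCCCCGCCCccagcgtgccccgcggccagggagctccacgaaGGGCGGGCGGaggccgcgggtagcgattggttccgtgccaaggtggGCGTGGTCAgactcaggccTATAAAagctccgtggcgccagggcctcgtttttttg

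The motifs were the antioxidant response element core TGACNNNGC, the consensus AANNGAAA, which IRF family proteins are known to bind, the GATA site AGATAA, the CACCC box CCACACCC, the TATA box TATAAA and the GC box GGGCGG. The Prdx2 window held 0 of the 6. The Sod1 window held TGACNNNGC on the opposite strand 56 to 48 bases before the start, TATAAA 37 to 32 bases before it, and 4 copies of GGGCGG in pairs that overlap. Of 32851 windows of this length, 10.2% held TGACNNNGC, 12.4% held TATAAA and 32.7% held GGGCGG. Over the 7 genes, TGACNNNGC was found in 1 (Sod1), GGGCGG in 5 and TATAAA in 2. AANNGAAA and CCACACCC were found in 1 each, both in Prdx3, and AGATAA in 0, against 21.3%, 3.2% and 9.99% of all windows. These are matches of letters and do not show binding.

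The mitochondrial and secretory peroxiredoxins overlapped between the groups. Prdx3, the peroxiredoxin of mitochondria, read 8.76, 8.06 and 8.997 in wildtype and 9.25, 8.77 and 8.26 in knockout. Wildtype replicate 2 was the lowest and knockout replicate 1 the highest of the 6. The difference was 0.15 (SE 0.52, 95% interval -1.09 to 1.39), and it turned to -0.12 without wildtype replicate 2 and to -0.09 without knockout replicate 1. The interval covers 0.470-fold to 2.63-fold of the wildtype level.

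Prdx4, the peroxiredoxin of the endoplasmic reticulum, had 4 probe sets, and the groups overlapped in each. The brightest read 10.33, 9.70 and 8.84 in wildtype and 9.76, 9.25 and 9.16 in knockout, so wildtype held both the highest and the lowest array. Its difference was -0.23 (SE 0.50, 95% interval -1.43 to 0.97) and turned to 0.12 without wildtype replicate 1. Prdx4 lies on the X chromosome, and Xist, the RNA that silences 1 X chromosome in females, read high in wildtype replicate 3 and knockout replicate 1. Those arrays were the lowest of wildtype and the highest of knockout for this probe set. Each group held 1 of them, so a term for them could not move the difference of -0.23. With that term the SE was 0.52, and a part of Xist status in the difference was not tested. In another probe set wildtype replicate 3 was instead the highest of all arrays, at 9.67, where the other 5 lay between 8.40 and 8.76. Another, of a type open to cross-hybridisation, kept a gap of 1.16 to 1.69 below the brightest on every array and differed by -0.01 (SE 0.53). The dimmest had a mean of 2.80, far under the median gene level.

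Sod1, the copper-zinc superoxide dismutase of the cytosol, was the steadiest of the 7 genes. Its brightest probe set read 12.53, 12.60 and 12.39 in wildtype and 12.36, 12.60 and 12.53 in knockout. The 6 arrays spanned 0.24, and the groups covered nearly the same range. The means were 12.51 ± 0.11 and 12.50 ± 0.13 (SD, n = 3 each), a difference of -0.0075 (SE 0.11) that turned to 0.015 when arrays were centred on their medians. The 95% interval, -0.28 to 0.26, leaves out changes beyond 0.825-fold and 1.20-fold for this probe set. The next brightest probe set read between 12.19 and 12.70 over the 6 arrays and differed by -0.08 (SE 0.17).

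The 3 dimmer probe sets of Sod1 behaved otherwise. One read 8.46, 8.996 and 9.18 in wildtype and 8.53, 8.59 and 5.24 in knockout, so that knockout replicate 3 alone set its difference of -1.43 (SE 0.98). On that array the brightest probe set read 7.30 more, against 3.21 to 4.08 more on the other 5. Another read 4.95 in knockout replicate 1 and 8.44 in knockout replicate 2, on either side of the wildtype arrays, which lay between 6.51 and 7.49. The dimmest read between 2.26 and 2.65 on all arrays. With the mean of all 5 the difference of Sod1 was -0.32 (SE 0.39).

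Sod2, the manganese superoxide dismutase of mitochondria, leaned lower in knockout in its bright probe sets and higher in its dim ones. The brightest read 9.37, 9.90 and 10.05 in wildtype and 9.54, 8.81 and 9.46 in knockout, where wildtype replicate 1 lay among the knockout arrays. The difference was -0.51 (SE 0.42, 95% interval -1.51 to 0.50, adjusted p = 0.887 in limma), and -0.27 without knockout replicate 2. The next probe set gave -0.52 (SE 0.44), with 9.06, 9.86 and 9.19 in wildtype and 9.32, 8.52 and 8.71 in knockout. The dimmer probe sets gave 1.001 (SE 1.03) and 0.48 (SE 0.56). One of them read 4.25 in wildtype replicate 1 against 7.38 and 7.49 in the other wildtype arrays, and that array was far below the other 5. With the mean of the 4 probe sets Sod2 differed by 0.11 (SE 0.45), so its direction depended on the probe sets used.

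**Figure D2:**
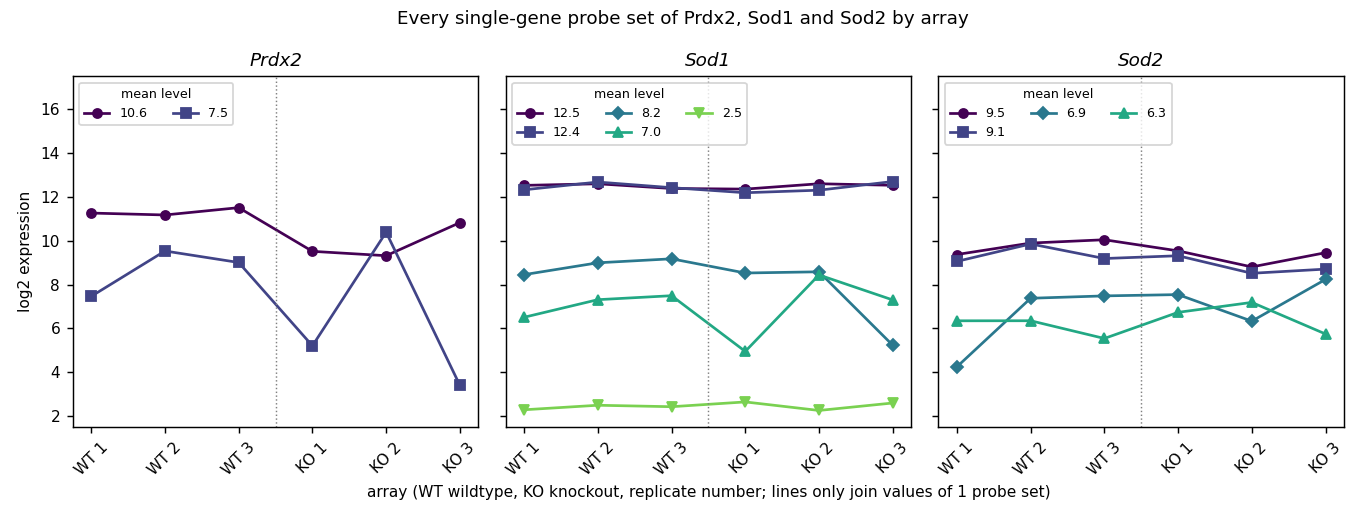
Log2 expression of each single-gene probe set of Prdx2 (2), Sod1 (5) and Sod2 (4) in wildtype (WT) and knockout (KO) arrays, named in the legend by mean level over the 6 arrays; the dotted line divides the groups. The brightest pair of Sod1 runs flat near 12.5, whereas a dimmer probe set of the same gene fell to 5.24 in knockout replicate 3. Another fell to 4.95 in knockout replicate 1, and the dimmest read between 2.26 and 2.65 on all arrays.

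The enzymes that clear hydrogen peroxide outside the peroxiredoxin family also overlapped. Cat, the catalase of peroxisomes, read 9.96, 10.14 and 10.17 in wildtype and 10.59, 9.77 and 9.92 in knockout. Knockout replicate 1 lay above and the other knockout arrays below the whole wildtype group, which gave means of 10.09 ± 0.11 and 10.09 ± 0.44 (SD, n = 3 each). The difference was 0.0038 (SE 0.35, 95% interval -0.83 to 0.84), and without knockout replicate 1 it was -0.24. The other probe set of Cat gave -0.23 (SE 0.56), with wildtype replicate 3 and knockout replicate 1 highest, at 10.12 and 10.03, and the other 4 arrays between 8.64 and 9.09. Both are the arrays that read high for Xist. By the brightest probe sets, they were also the highest pair for Cat and Prdx3 and the lowest pair for Sod1. They did not stand together at either end for Prdx2, Prdx4, Sod2 or Gpx1. A part of Xist status in these values was not tested.

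Gpx1, a selenium enzyme that uses glutathione to reduce hydrogen peroxide, had 1 probe set. It read 12.20, 11.96 and 11.97 in wildtype and 11.65, 11.77 and 12.16 in knockout. Knockout replicates 1 and 2 lay below all wildtype arrays, and replicate 3 lay among them. The difference was -0.18 (SE 0.18, 95% interval -0.61 to 0.25, adjusted p = 0.887 in limma), which bounds a decrease at 0.657 of the wildtype level for this probe set. Leaving out knockout replicate 1 brought it to -0.07, and leaving out wildtype replicate 1 to -0.10. Without knockout replicate 3 it was -0.33 (SE 0.15, adjusted p = 0.935) and the groups no longer overlapped, as for 2 of the 7 genes and for 10% of all genes in that comparison, in the lower direction.

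Over all 19 probe sets of these genes the knockout mean was lower for 14 and higher for 5, and the groups did not overlap for 1. Among all 34945 single-gene probe sets 44.6% had a difference below 0, and 4.48% lay lower in knockout without overlap. In limma fitted over all probe sets 0 of the 19 passed, and 0% of all probe sets did. The adjusted p ran from 0.902 to 0.999. All 4 probe sets of Prdx4 and both of Prdx2 had differences below 0. Sod1 had 4 below and 1 above, Sod2 2 and 2, and Cat 1 and 1. Probe sets of 1 gene share their RNA and are not replicates.

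**Figure D3:**
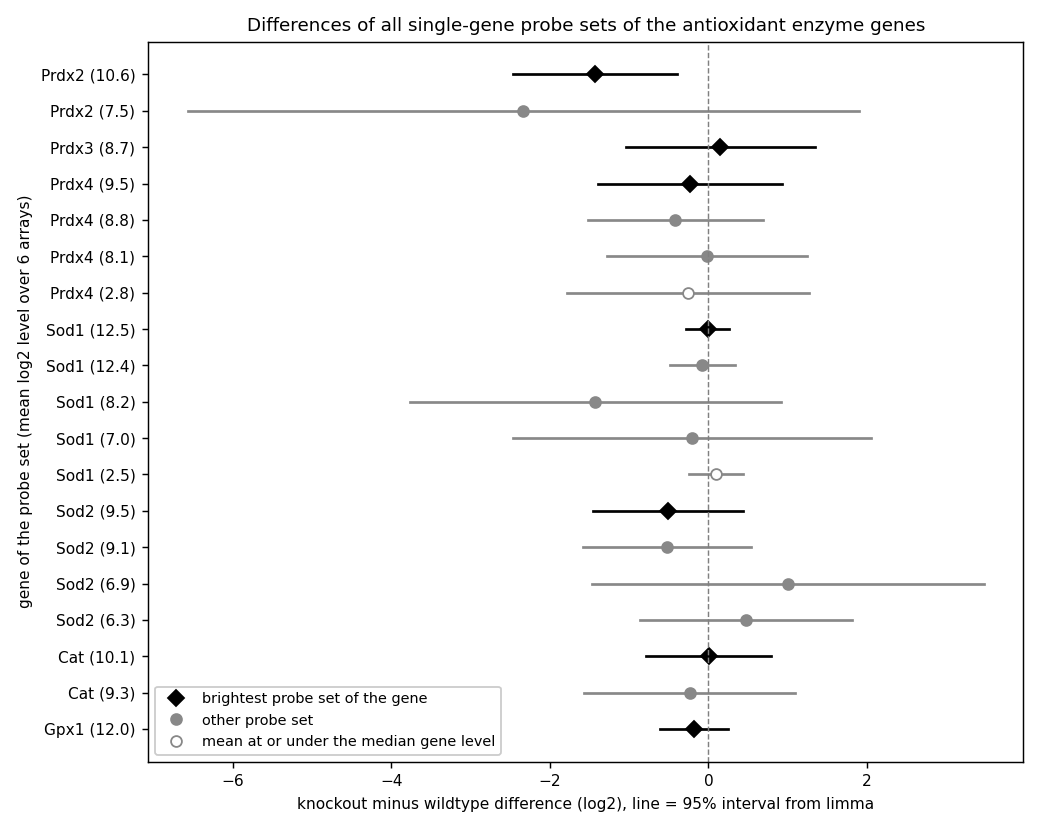
Knockout minus wildtype difference (log2) with its 95% interval from limma for each of the 19 single-gene probe sets, labelled by gene and mean level over the 6 arrays; diamonds mark the brightest probe set of each gene and open circles those under the median gene level. The interval lies wholly below 0 for the brightest Prdx2 probe set alone, from -2.47 to -0.39, and it is narrowest for the brightest of Sod1.

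The 7 genes differed in how much they varied between arrays of a group. The residual SD, which is the spread left within groups, was 0.117 for Sod1, 0.214 for Gpx1, 0.319 for Cat, 0.378 for Sod2, 0.49 for Prdx3, 0.577 for Prdx4 and 0.592 for Prdx2. All 7 lay below the median of 0.807 over the 9096 genes above the median gene level, whereas Prdx4 and Prdx2 lay above the median of 0.503 over all genes. For Sod1, 0.956% of the genes above the median gene level had a smaller residual SD, for Gpx1 4.64% and for Prdx2 32.9%. The mean levels of the 7 genes ran from 8.68 for Prdx3 to 12.50 for Sod1, and these comparisons were not matched for level. The lowest array was knockout replicate 2 for Prdx2, Sod2 and Cat and knockout replicate 1 for Sod1 and Gpx1. It was a wildtype array for Prdx3 and Prdx4. Relative to the wildtype mean, the median over the 7 genes was -0.15, -0.32 and -0.32 in knockout replicates 1 to 3. It lay between 0.02 and 0.08 in the wildtype arrays, which make up that mean and so are held near 0. Over all genes the same medians were 0.031, -0.045 and 0.159 in knockout replicates 1 to 3 and between -0.044 and 0.018 in wildtype.

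Other genes of the antioxidant system were read from 3 lists. Of 14 measured genes of the thioredoxin and sulfiredoxin system, which recharges and repairs peroxiredoxins, 0 passed over all genes, 8 had differences below 0 and the median was -0.09. Srxn1, the sulfiredoxin that rescues overoxidised peroxiredoxins, read 8.17, 8.32 and 6.25 in wildtype and 6.98, 4.35 and 5.37 in knockout. Wildtype replicate 3 lay among the knockout arrays. The difference was -2.01 (SE 0.87, adjusted p = 0.887 in limma), and its other probe sets gave -1.54, -0.61 and 0.09, the last at levels between 2.76 and 3.29. The probe set at -1.54 (SE 0.53) kept the groups apart, with 6.21 to 7.42 in wildtype and 4.99 to 5.98 in knockout. Txnrd2, the thioredoxin reductase of mitochondria, read 6.87, 7.13 and 7.50 in wildtype and 6.70, 6.39 and 5.67 in knockout without overlap, a difference of -0.91 (SE 0.48). Without knockout replicate 3 the difference was -0.62 (SE 0.47). Other probe sets of Txnrd2 gave -2.34, 0.08 and 0.83. Txn1, the cytosolic thioredoxin, read 11.84 ± 0.17 in wildtype and 11.49 ± 0.27 in knockout (SD, n = 3 each), a difference of -0.35 (SE 0.20). Its other, much dimmer probe set gave 0.11 (SE 0.59), and with the mean of both Txn1 differed by -0.12 (SE 0.43).

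Of 14 measured genes of the glutathione and glutaredoxin system, 0 passed, 6 had differences below 0, 8 had differences above 0 and the median was 0.15. Gss, the glutathione synthetase, read 6.29, 6.24 and 5.75 in wildtype and 5.37, 5.31 and 4.71 in knockout. Its groups did not overlap, and the difference was -0.96 (SE 0.35, adjusted p = 0.887 in limma). A second probe set of Gss gave -1.67 (SE 0.43), with 6.43, 5.42 and 6.64 in wildtype and 4.68, 4.45 and 4.34 in knockout. Both probe sets of Gss thus kept the groups apart, though the levels lay near the median gene level of 5.81. Glrx2, a mitochondrial glutaredoxin, differed by -1.49 (SE 0.72) and by 0.24 and -0.70 in other probe sets. Pgd, an enzyme of the pentose phosphate pathway that makes NADPH, differed by 1.09 (SE 0.47), and its 3 other probe sets gave 0.74 to 1.11. Gpx3, the secreted glutathione peroxidase, named here after its values were seen, was the other gene of this list without overlap, at 5.64 ± 0.36 and 7.06 ± 1.61 (SD, n = 3 each), with 8.92 in knockout replicate 3.

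Of 14 measured genes of NRF2 and redox regulation, 0 passed, 9 had differences below 0, the groups overlapped for all, and the median was -0.21. Bach1, a haem-sensing repressor of antioxidant genes, read 8.56, 9.79 and 9.35 in wildtype and 8.95, 6.38 and 6.73 in knockout. Its difference was -1.88 (SE 0.81) and its other probe set gave 0.05. Mt1, a metallothionein that binds metal ions, differed by -1.68 (SE 0.75) and by -0.24 in a second probe set. Sqstm1, an autophagy receptor that binds the NRF2 inhibitor KEAP1, differed by 1.34 (SE 0.82) and by -0.31 in a probe set far under the median gene level. Groups did not overlap for 3 of the 42 genes of the 3 lists, Txnrd2, Gss and Gpx3, where 10.9% of all genes had no overlap in either direction.

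**Figure D4:**
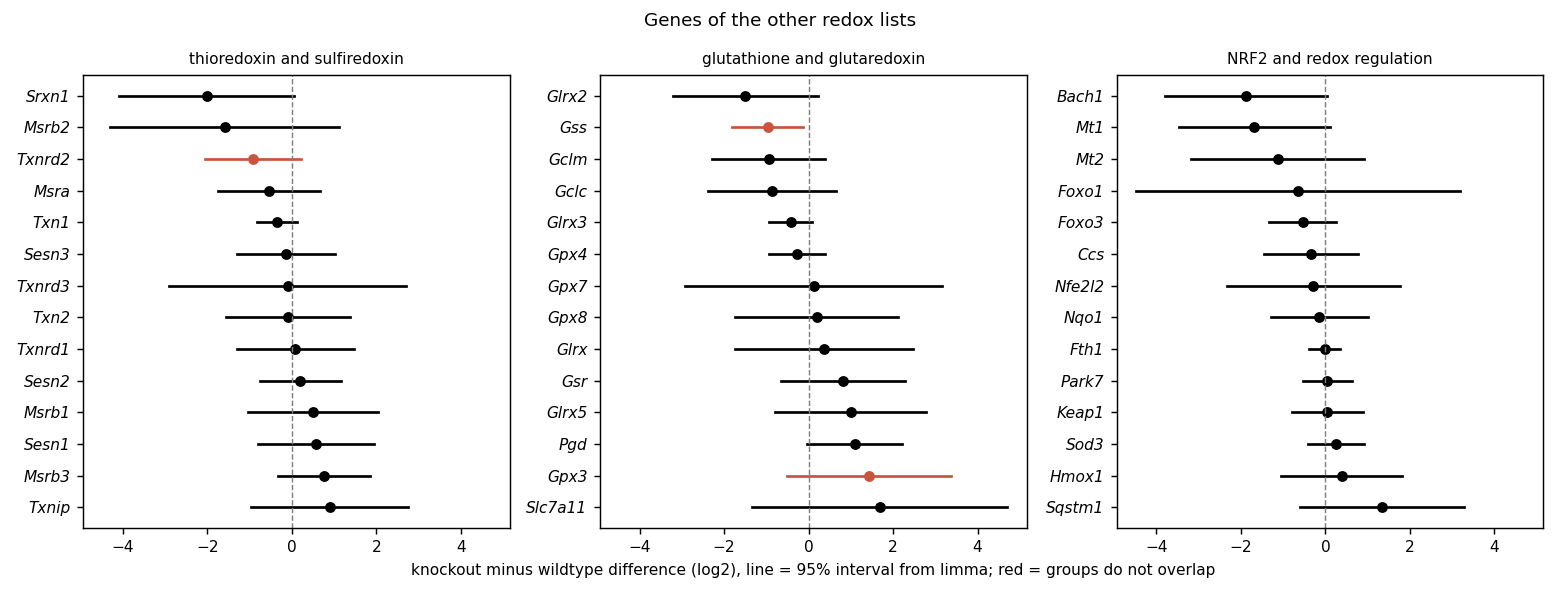
Knockout minus wildtype difference (log2) with its 95% interval from limma for each measured gene of the thioredoxin and sulfiredoxin, glutathione and glutaredoxin, and NRF2 and redox regulation lists (14 genes each), with red for groups that do not overlap. Differences run from -2.01 to 1.68, and the interval of 1 gene, Gss, leaves out 0.

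Markers of other cell types moved with the groups in part. The summed linear level of 11 measured neutrophil markers of 12 listed lay between 6027 and 9056 in wildtype and between 18876 and 57200 in knockout, and 10 of the 11 had differences above 0. S100a9 and S100a8, the calcium-binding proteins of neutrophils, differed by 2.01 (SE 0.34) and 2.12 (SE 0.40). Their adjusted p was 0.740 and 0.880 in limma, so neither passed. The groups did not overlap for 3 of the 11 markers, all higher in knockout, where 6.67% of all genes did so. Within knockout the sum was highest in replicate 3, the array where Prdx2 lay closest to wildtype, and the part of these markers in the Prdx2 difference was not tested. The 9 measured erythroid markers of 12 listed summed to between 825 and 1509 in wildtype and between 825 and 1670 in knockout, so the sums overlapped. Among them, Hba-a1 and Alas2, the genes of a haemoglobin chain and of haem synthesis, read under the median gene level on every array, with group means of 4.66 and 4.09 in wildtype and 4.31 and 3.80 in knockout. Tfrc, the transferrin receptor, and Gata1, an erythroid transcription factor, differed by 0.78 and 0.61, and the groups did not overlap for Tfrc. Of the 9, 5 had differences below 0 and 4 above. Klf1, an erythroid transcription factor named here after its values were seen, differed by -2.21 (SE 0.81, adjusted p = 0.887 in limma).

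The other marker lists overlapped between the groups in their sums. The 8 measured stem cell markers of 10 listed summed to between 5873 and 7672 in wildtype and between 4547 and 9970 in knockout, with Meis1 and Hlf, transcription factors of stem cells, at differences of 0.34 and 0.15. Of the 8, 4 had differences below 0 and 4 above, and the groups did not overlap for Procr, a receptor that marks stem cells, at -0.75 (SE 0.36). The 7 megakaryocyte markers summed to between 2526 and 8030 in wildtype and between 2670 and 6979 in knockout, and Pf4 and Gp1bb, both platelet genes, differed by 0.16 and 0.23, with 3 of the 7 below 0. The 5 measured B cell markers summed to between 318 and 964 in wildtype and between 209 and 393 in knockout, with Cd79b and Ebf1 at -1.41 and -0.12, and 3 of the 5 had differences below 0. The 6 measured monocyte and macrophage markers summed to between 197 and 408 in wildtype and between 109 and 991 in knockout, with Csf1r and Ccr2 at -0.19 and -1.03. Of the 6, 3 had differences below 0 and 3 above, and the groups did not overlap for Cd14 and C1qa, at 0.57 and 0.38. The 6 measured T and NK cell markers summed to between 122 and 180 in wildtype and between 137 and 178 in knockout, with Cd4 and Cd8a at -0.12 and -0.04. Of the 6, 3 had differences below 0 and 3 above, and the groups did not overlap for Ncr1, at 0.42. No monocyte or T cell marker lay above the median gene level in its mean over the arrays. The markers without overlap in these lists are to be set beside all genes, where 4.25% had groups apart with knockout lower and 6.67% with knockout higher.

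**Figure D5:**
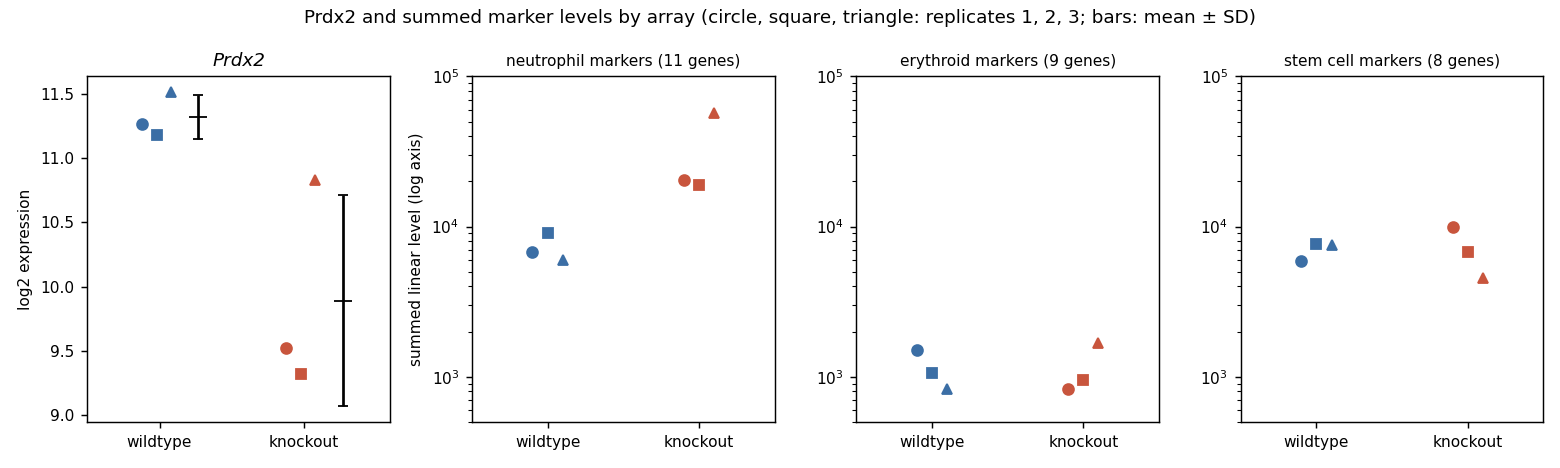
Prdx2 (log2 expression, mean ± SD, n = 3) beside the summed linear levels of the neutrophil, erythroid and stem cell markers (log axis) in each wildtype (blue) and knockout (red) array. Neutrophil sums are at least 18876 in the 3 knockout arrays and at most 9056 in wildtype, whereas erythroid sums overlap.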

How the data were processed

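The values are log2 expression values as deposited by the authors, 1 per probe set and array, for 45037 probe sets on 6 arrays. RMA, Partek and Affymetrix Expression Console appear with no version in the submitters' processing notes, and the sources used here give no settings for them.

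The platform annotation gave 1 gene for 34945 probe sets, several genes for 932 and none for 9160, and 34741 of the first kind matched RefSeq by Entrez number. Each of 18193 genes was represented by its probe set with the highest mean over all arrays, with no filter on level. Sample titles gave the groups. The 2 groups were fitted with limma (version 3.58.1, in R 4.3.3) by lmFit and by eBayes with a mean-variance trend. Tests were two-sided, with Benjamini-Hochberg adjustment over all genes fitted and calls at an adjusted p below 0.05. A second fit took all single-gene probe sets. The fit was tested on simulated data. The labels call the 3 samples of a group biological replicates without naming animals, so the p-values measure the spread between these samples only.

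The members, gene lists and motifs were chosen with earlier results of these data known, so no list was tested. Genes were named by rule: all members, Irf8, the 3 genes with the smallest unadjusted p in each redox list among those whose higher group mean lay above the median gene level, and the 2 brightest of each marker list. Kit, Slamf1, Hba-a1 and Alas2 were added to check the sort and the erythroid markers. Klf1, Gpx3, Procr, Cd14, C1qa, Ncr1, Zfp229 and the neighbours of Prdx2 were added after their values were seen. The alternatives were other ways to choose or average probe sets, to normalise, filter or weight, a replicate block, a term for arrays with high Xist, and leaving out each array. Tables were prepared in Python 3.11.15 (numpy 2.4.6, pandas 2.3.3), and figures were drawn in matplotlib 3.10.9.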

Additional observations from a re-analysis of the deposited data

How the results depend on the processing

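Over 15 other settings, Prdx2 stayed lower in knockout in the 14 that gave it a value, with differences from -1.90 to -1.15. Adjusted p ran from 0.59 to 0.987 in limma. Prdx2 had no value among probe sets without the suffixes _x, _s or _a. Fitting without the trend, the level filter, the replicate block and the Xist term cannot change a difference in this balanced design, and gave -1.43. Leaving out an array cannot turn the direction of a gene whose groups lie apart. None of the 7 genes or their 19 probe sets passed in any setting run. Over all genes 0 passed and 880 had an unadjusted p under 0.05; averaging the probe sets of a gene let 1 gene pass, Zfp229 (adjusted p = 0.047 in limma), named after its value was seen. The replicate block gave Prdx2 -1.43 (SE 0.37, adjusted p = 0.889 in limma) and changed no call. Deviations of same-numbered arrays correlated at -0.0237, -0.00927 and -0.0115. Values this small show no shared deviation, but they cannot show that the samples were not paired. The members' median ran from -0.244 to -0.06135 with an array left out, that of the thioredoxin list from -0.189 to 0.058 (above 0 without wildtype replicate 1 or knockout replicate 3), that of the glutathione list from -0.385 to 0.312 (below 0 without wildtype replicate 2 or 3 or knockout replicate 1) and that of the NRF2 list from -0.361 to 0.039 (above 0 without knockout replicate 2). The thioredoxin median was also 0.0227 when probe sets were averaged and 0.0941 with array weights, and the glutathione median was -0.0339 when probe sets were averaged. Of 104 values of the members under these settings 12 turned direction, 8 of them with an array left out. The 104 include the settings that cannot change a difference. Differences became 0.01529 for Sod1 with centred arrays, 0.1125 for Sod2 and -0.1153 for Cat when probe sets were averaged, and -0.2343 for Cat and -0.3079 for Sqstm1 among probe sets without those suffixes. With an array left out, Prdx3 ran from -0.1219 to 0.3998, Prdx4 from -0.62 to 0.1248, Sod1 from -0.06686 to 0.0622, Sod2 from -0.704 to -0.275, Gpx1 from -0.331 to -0.073 and Cat from -0.244 to 0.1668. Of the other named genes, Txn1 ran from -0.463 to -0.196 (closest to 0 without knockout replicate 2), Pgd from 0.68 to 1.56 (lowest without wildtype replicate 3) and Sqstm1 from 0.839 to 2.19 (lowest without wildtype replicate 2, highest without wildtype replicate 3). In a check added after seeing the data, Sod2 also had groups apart without wildtype replicate 1, Cat without knockout replicate 1 and Gpx1 without knockout replicate 3, where 8.07%, 9.16% and 10% of all genes lay lower without overlap, and no member did when probe sets were averaged. The cause was not tested for any of these. The 6 arrays limit the precision, and 2 of the 19 probe sets read under the median gene level.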

Other observations

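Prdx2 and Klf1 lie close together in the genome, and in both the same knockout array read closest to wildtype. In RefSeq gene order (GRCm38.p6) 4 protein-coding genes stand between them, and this was looked up after the values of both had been seen. Klf1, a transcription factor of red cell formation with 1 single-gene probe set, read 7.40, 7.91 and 7.56 in wildtype and 4.26, 4.75 and 7.23 in knockout. As for Prdx2, knockout replicates 1 and 2 read far below wildtype, and replicate 3 read just below it. Dnase2a, Mast1, Rtbdn and Rnaseh2a, which stand between them, differed by 0.01, 0.01, -0.26 and -0.19, and their groups overlapped. Rtbdn, under the median gene level, also read below all wildtype arrays in knockout replicates 1 and 2, at 4.06 and 4.04 against 4.35 to 4.51, and at 4.46 in replicate 3. Junb, the next gene on the other side of Prdx2, differed by 0.66 (SE 0.56). Of 18 measured genes among the 10 on each side of Prdx2, 9 had differences below 0 and 9 above, and the median was -0.09. Groups did not overlap for Klf1 in the lower direction and for 2 genes in the higher, Tnpo2 and Fbxw9, at 1.26 (SE 0.57) and 0.73 (SE 0.48), counts to be set beside 4.25% lower and 6.67% higher over all genes. Adjusted p in limma was 0.887 for Klf1 and both of these. A link between Prdx2 and Klf1 was not tested.

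The 5 probe sets that name Prdx1 together with the pseudogene Gm21399, and so belong to no single gene, all read lower in knockout on average. Their differences ran from -0.64 to -0.22, and the groups overlapped in each. The largest was in a probe set that read 11.00, 10.84 and 10.28 in wildtype and 9.98, 9.79 and 10.43 in knockout, where knockout replicate 3 alone lay within the wildtype range.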
